A study of Mus musculus with 6 samples.

Results

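The 9 genes Tbx21, Eomes, Id2, Batf, Bcl6, Prdm1, Maf, Foxp3 and Ikzf2, taken by their symbols, encode transcription factors that steer CD4+ T cells into effector, follicular helper and regulatory fates. They are 9 of 56246 genes in the table of normalized counts. All 9 had a mean of at least 100 normalized counts in either condition and were therefore tested. In the tables of splicing events, 4 of the 9 genes held 17 of 65785 events.

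CD4+ T cells were sorted from pooled spleen and peripheral lymph nodes of adult male mice, and RNA of 3 cKO and 3 Control libraries was sequenced to ask which transcripts change when CD2BP2/U5-52K, an assembly factor of the U5 snRNP of the spliceosome, is ablated. The cKO libraries carry floxed U5-52K on both alleles together with the CD4-Cre transgene (U5-52K f/f CD4-Cre tg). They are KO_7.8, then KO_9.10, then KO_11.12, and cKO values stand in this order. CD4-Cre acts from the double positive thymocyte stage onward, so the deletion precedes the peripheral CD4+ T cell and reaches CD8+ T cells as well. In the Control, CTRL_1.2 and CTRL_3.4 are heterozygous for the floxed allele and carry the transgene (U5-52K wt/f CD4-Cre tg), whereas CTRL_5.6 is f/f and Cre negative, and Control values stand in the order 1.2, then 3.4, then 5.6. Every library therefore holds at least 1 floxed allele, and CTRL_5.6 alone lacks Cre. The design names 3 mice per condition, the digits in the library names are unexplained, and p-values rest on the spread between the libraries alone.

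Each subset of CD4+ T cells is held in place by a few lineage factors that repress one another. T-bet (encoded by Tbx21) drives the Th1 program, BCL6 drives follicular helper T (Tfh) cells and is antagonized by BLIMP-1 (encoded by Prdm1), and FOXP3 defines regulatory T (Treg) cells, most of which carry HELIOS (encoded by Ikzf2) when they come from the thymus. ID2, BATF, c-MAF and EOMES act across several effector and memory subsets.

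Reads in genes ranged from 69981159 to 82286366 in the cKO and from 56995121 to 75606222 in the Control. Cd2bp2, the ablated gene, had normalized counts of 884, 874 and 738 in the cKO libraries, against 2624, 2602 and 2612 in the Control libraries (log2 fold change -1.65, limma adjusted p = 0.00137). Of the 8 T cell markers, 7 were in the table with a median log2 fold change of -0.054, and Cd4 lay between 54431 and 59883 in the cKO and between 57495 and 62831 in the Control. Transcripts of other cell types were present and moved with some libraries. KO_7.8 stood apart by its myeloid markers (sum of 12 genes 27520, against 5808 and 7163 in the other cKO libraries and 4320.5 to 7633 in the Control) and by its dendritic cell markers (sum of 8 genes 981780, against 187470 and 235920 in the other cKO libraries and 152370 to 241470 in the Control). All 9 B cell markers had a negative log2 fold change, with sums of 3927 to 7501 in the cKO and 9335 to 13219 in the Control. The sum of 6 NK cell markers was 3559 to 4905 in the cKO and 2890 to 3637 in the Control. No defining marker of these lists was at 0 in all 6 libraries. In bulk RNA, fewer cells of a type and less RNA per cell cannot be told apart.

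Id2 was the only one of the 9 genes that rose, none fell, and 8 did not pass the test (limma on log2(normalized count + 1), adjusted p under 0.05 over 11001 genes). Over all genes tested, 0.673% rose, 0.3% fell and 0.973% passed in either direction. At an unadjusted p under 0.05, Id2 was again alone, with 16.7% of all genes at that level. With the additional requirement of an absolute log2 fold change above 1, none of the 9 genes was called, against 0.564% of all genes. The log2 fold change was positive for 7 of the 9 genes, with a median of 0.26 beside 0.010 over all genes tested. Libraries of the conditions did not overlap for 1 of the 9 genes, beside 24.1% of all genes. Without KO_7.8 they did not overlap for 4 of the 9 genes (Id2 and Tbx21 higher, Eomes and Bcl6 lower), beside 39.8% of all genes.

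**Figure D1:**
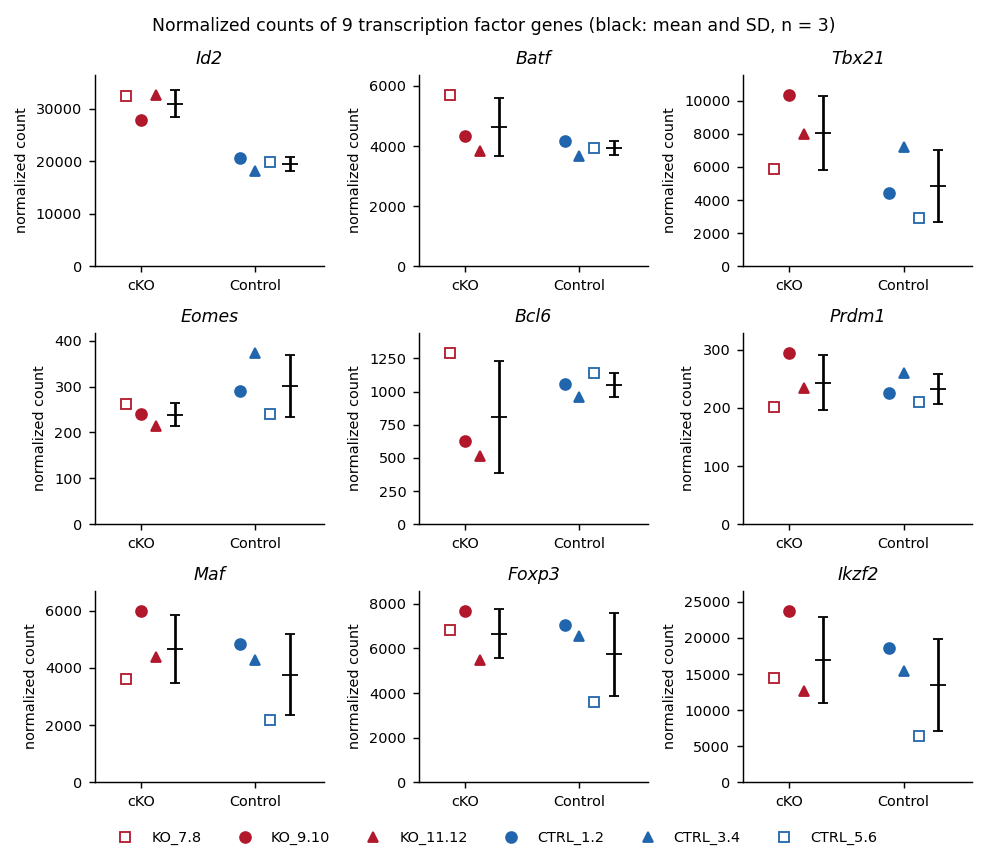
Normalized counts (vertical axes, from 0) of the 9 genes in each cKO library (left, red) and each Control library (right, blue), with the mean and SD of the 3 libraries in black; open squares are KO_7.8 and CTRL_5.6. The cKO libraries of Id2 sit between 27975 and 32643, above the Control libraries at 18092 to 20553, and the conditions overlap for the other 8 genes.

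Id2 lies on the minus strand of chromosome 12 from 25093799 to 25097140 (GRCm38). It encodes an inhibitor that binds E proteins and keeps them off DNA, and it favors effector over follicular and naive states in CD4+ T cells. Its normalized count was 32408, 27975 and 32643 in the cKO libraries, against 20553, 18092 and 19894 in the Control libraries. Every cKO library was above every Control library, including the Cre negative one, and the spread within each condition was small. The mean was 31008 ± 2630 in the cKO and 19513 ± 1274 in the Control (SD, n = 3 each), a 1.59-fold higher level (95% confidence interval 1.35 to 1.87, log2 fold change 0.67, standard error 0.099, limma adjusted p = 0.0378). edgeR and DESeq2 on the recovered reads also called Id2 (adjusted p = 0.0417 and 2.6e-07), where they called 1.02% and 8.42% of all genes. Leaving out any single library ended the limma call (adjusted p between 0.0592 without KO_7.8 and 0.160 without KO_11.12, where 1.18% of all genes passed without KO_7.8 and 0.327% without CTRL_5.6) while the log2 fold change stayed between 0.61 and 0.74. Id2 is also transcribed in NK and dendritic cells, whose markers had medians of 0.96 and 0.99 on the log2 fold change scale. Without KO_7.8, the library rich in dendritic and myeloid markers, the Id2 log2 fold change was 0.63, beside medians of 0.91 for the NK cell and 0.48 for the dendritic cell markers. The part of other cell types in the Id2 difference was not tested.

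ID2 and ID3 share the E proteins as partners. Id3, a gene of naive cells, had normalized counts of 6968, 4747 and 4844 in the cKO libraries, against 6623, 6063 and 10017 in the Control libraries (limma adjusted p = 0.391). Within a library, the count of Id2 over that of Id3 was 4.65, 5.89 and 6.74 in the cKO, against 3.10, 2.98 and 1.99 in the Control. This ratio was higher in each cKO library, and it is given without a test. Tcf3, which encodes the E protein E2A, varied more within the conditions than between them, with 5397, 12828 and 15378 in the cKO libraries and 10930.4, 12715 and 6432 in the Control libraries (limma adjusted p = 0.955).

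Batf encodes an AP-1 factor that pairs with JUN proteins and IRF4 in activated T cells and lies on the plus strand of chromosome 12 from 85686669 to 85709087. The normalized count was 5696, 4337 and 3832 in the cKO libraries, against 4171, 3683 and 3949 in the Control libraries. Only KO_7.8 and KO_9.10 lay above all Control libraries, and the conditions overlapped. The log2 fold change was 0.21 (95% confidence interval -0.15 to 0.58, limma adjusted p = 0.545) and 0.053 without KO_7.8. The related Batf3, a factor of cross-presenting dendritic cells that activated T cells also express, was likewise highest in KO_7.8, with 1081, 211 and 235 normalized counts in the cKO libraries, against 137, 129.6 and 199 in the Control libraries (limma adjusted p = 0.351). The high values of Batf and Batf3 in KO_7.8 stood beside its myeloid and dendritic markers, whose part was not tested.

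Tbx21 lies on the minus strand of chromosome 11 from 97098071 to 97115331. Its normalized count was 5858, 10338 and 7976 in the cKO libraries, against 4415, 7197 and 2903 in the Control libraries. The highest Control library exceeded the lowest cKO library, so the conditions overlapped. Means were 8057 ± 2241 in the cKO and 4838 ± 2178 in the Control (SD, n = 3 each), and the log2 fold change of 0.80 (95% confidence interval -0.026 to 1.62) did not pass the test (limma adjusted p = 0.314). Its spread within the Control was wider than that of 96.8% of tested genes. The log2 fold change depended on single libraries, with 0.48 without CTRL_5.6, 0.60 without KO_9.10 and 1.13 without CTRL_3.4.

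Eomes, which encodes the T-box relative of T-bet found in memory and cytotoxic T cells, lies on the plus strand of chromosome 9 from 118478212 to 118486132. It had 263, 239.9 and 213 normalized counts in the cKO libraries, against 291, 373 and 240.4 in the Control libraries. KO_9.10 and KO_11.12 lay below all Control libraries, KO_9.10 by a fraction of a count, and KO_7.8 did not (log2 fold change -0.32, 95% confidence interval -0.83 to 0.20, limma adjusted p = 0.523). Both T-box genes had their highest Control value in CTRL_3.4, and without this library the log2 fold change of Eomes was -0.15. Within a library, Tbx21 over Eomes was 22.3, 43.1 and 37.4 in the cKO and 15.2, 19.3 and 12.1 in the Control, and it was higher in each cKO library. That ratio was chosen after the values were seen and is a description without a test.

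Bcl6 lies on the minus strand of chromosome 16 from 23965052 to 23988852. Its normalized count was 1289.8, 627 and 513 in the cKO libraries, against 1055, 962 and 1142 in the Control libraries. KO_7.8 held the highest value of all 6 libraries, and the other cKO libraries held the lowest values. With all libraries the log2 fold change was -0.49 (95% confidence interval -1.27 to 0.28, limma adjusted p = 0.509). Without KO_7.8 it was -0.89 (95% confidence interval -1.24 to -0.54) and missed the threshold (limma adjusted p = 0.0508), whereas without KO_11.12 it was -0.22. BCL6 is also made by B cells, dendritic cells and macrophages. The B cell marker sum was 7501, 3927 and 6319.9 in the cKO libraries, against 9335, 10497 and 13219 in the Control libraries. Bcl6 was highest in KO_7.8, beside the myeloid and dendritic markers of that library. The B cell marker sum was below every Control library in each cKO library, KO_7.8 included. The part of these cell types in the Bcl6 values was not tested.

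Prdm1, on the minus strand of chromosome 10 from 44437177 to 44528501, encodes the repressor BLIMP-1 of effector T cells and plasma cells. The normalized count was 201, 294 and 233 in the cKO libraries, against 225, 260.1 and 210.2 in the Control libraries. The Control range lay within that of the cKO, and the log2 fold change of 0.054 (95% confidence interval -0.45 to 0.56, limma adjusted p = 0.939) changed sign with the library left out. Bcl6 over Prdm1 was 6.42 in KO_7.8 and 2.14 and 2.20 in KO_9.10 and KO_11.12, against 4.68, 3.70 and 5.43 in the Control libraries. The balance of this antagonist pair was thus lowest in KO_9.10 and KO_11.12 and highest in KO_7.8.

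Foxp3 and Ikzf2 describe the Treg fraction of the sorted cells. Foxp3 lies on the plus strand of chromosome X from 7573644 to 7595245 and had 6820.0, 7666 and 5489 normalized counts in the cKO libraries, against 7038, 6559 and 3605 in the Control libraries. Apart from the low value of CTRL_5.6, the Control libraries lay within the range of the cKO. The log2 fold change was 0.26 (95% confidence interval -0.37 to 0.89, limma adjusted p = 0.69), and it was -0.043 without CTRL_5.6. Flicr overlaps Foxp3 on the same strand and 3 further genes overlap it on the other strand, so reads of these genes may be shared.

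Ikzf2, on the minus strand of chromosome 1 from 69531214 to 69687245, encodes the Ikaros family factor HELIOS. It had 14412, 23687 and 12704 normalized counts in the cKO libraries, against 18591, 15430.3 and 6396 in the Control libraries. The values ranged widely in both conditions and overlapped. The log2 fold change of 0.41 (95% confidence interval -0.59 to 1.41, limma adjusted p = 0.692) turned to -0.055 without CTRL_5.6. Ikzf2 over Foxp3 was 2.11, 3.09 and 2.31 in the cKO and 2.64, 2.35 and 1.77 in the Control, with overlapping values.

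Maf encodes c-MAF, which supports IL-10, IL-21 and IL-4 expression in Tfh, Treg and Th17 cells, and lies on the minus strand of chromosome 8 from 115682942 to 115707794. The normalized count was 3623, 5976 and 4382 in the cKO libraries, against 4829, 4285 and 2174 in the Control libraries. As for Foxp3 and Ikzf2, the lowest value was in CTRL_5.6 and the highest in KO_9.10. The log2 fold change was 0.36 (95% confidence interval -0.41 to 1.13, limma adjusted p = 0.642) and 0.0039 without CTRL_5.6, and it was 0.16 without KO_9.10.

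**Figure D2:**
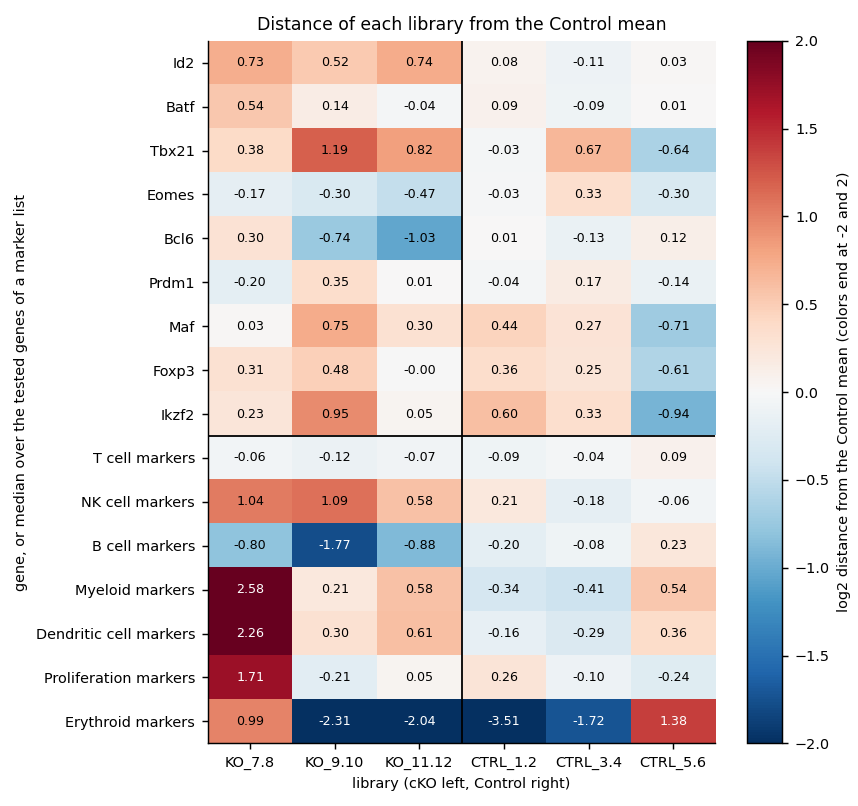
Log2 distance of each library (columns, cKO left and Control right) from the Control mean for the 9 genes, and the median distance over the tested genes of 7 marker lists (rows below the line). Id2 is positive in each cKO library (0.73, 0.52 and 0.74), Tbx21, Maf, Foxp3 and Ikzf2 are lowest in CTRL_5.6, and the myeloid and dendritic markers are highest in KO_7.8 (2.58 and 2.26).

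CTRL_5.6, the Cre negative f/f library, was the lowest of all 6 libraries for Tbx21, Maf, Foxp3 and Ikzf2. Its log2 distance from the Control mean was -0.64 for Tbx21, -0.71 for Maf, -0.61 for Foxp3 and -0.94 for Ikzf2. In CTRL_1.2 and CTRL_3.4, the same distances were -0.033 and 0.67 for Tbx21, 0.44 and 0.27 for Maf, 0.36 and 0.25 for Foxp3 and 0.60 and 0.33 for Ikzf2. The SD of the Control libraries on the log2 scale stood at or above the percentile 93.9 of all tested genes for these 4 genes (93.9 for Foxp3, 98.5 for Ikzf2). Id2, Batf and Bcl6 did not show this spread in the Control (percentiles 26.8, 24.2 and 38.1). CTRL_5.6 also stood apart by other cell types. The sum of 5 erythroid markers was 3085, 331 and 387 in the cKO libraries, against 171, 487 and 4080 in the Control libraries, and the B cell marker sum was highest in CTRL_5.6. The part of these cells in its low values was not tested. With 1 Cre negative library, genotype, Cre and library cannot be told apart.

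When CTRL_5.6 and KO_7.8 were both left out, an alternative chosen after seeing the data, Id2 (log2 fold change 0.65, limma adjusted p = 0.00186) and Tbx21 (0.69, limma adjusted p = 0.0210) passed as higher in the cKO and Bcl6 (-0.83, limma adjusted p = 0.00148) passed as lower. Of all genes, 13.3% passed, 7.77% higher and 5.5% lower, in that comparison of 2 cKO with 2 Control libraries. Of the 9 B cell markers, 8 passed as lower there (median -1.03), and of the dendritic cell markers 5 passed as higher (median 0.68), and their part was not tested. The other 6 genes did not pass there, and Eomes came closest (-0.54, limma adjusted p = 0.0862).

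**Figure D3:**
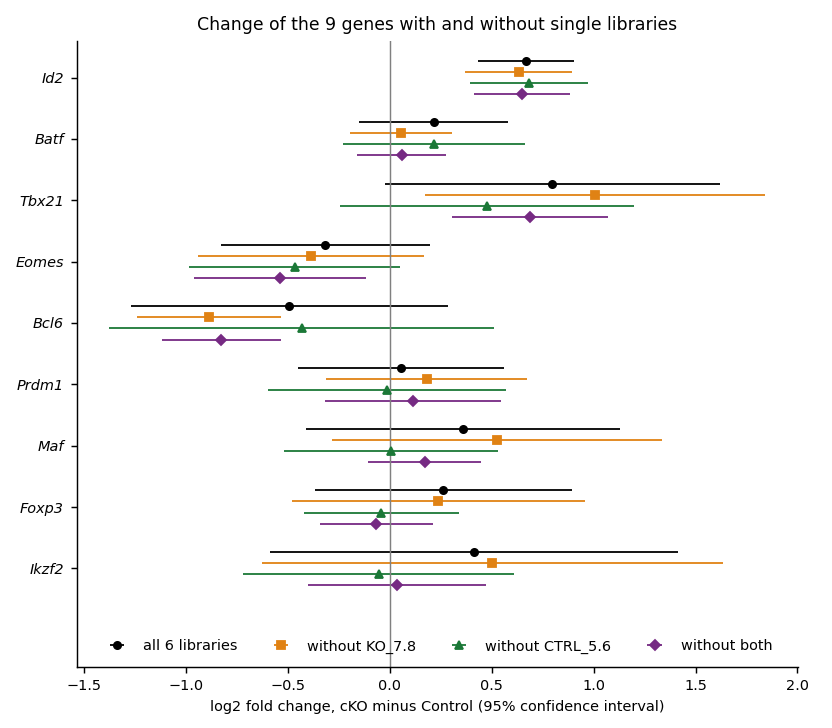
Log2 fold change of the 9 genes, cKO minus Control, with 95% confidence intervals, for all 6 libraries (black), without KO_7.8 (orange), without CTRL_5.6 (green) and without both (purple). Id2 stays between 0.63 and 0.68 in these 4 sets, Bcl6 moves to -0.89 without KO_7.8, and Maf, Foxp3 and Ikzf2 lie near 0 without CTRL_5.6.

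Levels of the genes can be set side by side per kilobase of annotated exons. On this scale Id2 was the most abundant, with 12719 ± 1079 normalized counts per kilobase in the cKO and 8004 ± 523 in the Control (SD, n = 3 each). Batf (3287 ± 686 in the cKO, 2798 ± 174 in the Control) and Tbx21 (3239 ± 901 in the cKO, 1945 ± 876 in the Control) followed and overlapped one another. Ikzf2 (1458 ± 509 in the cKO, 1160.1 ± 545 in the Control) and Foxp3 (1455 ± 239.8 in the cKO, 1253 ± 406 in the Control) also overlapped. Maf reached 566 ± 146 in the cKO and 457 ± 170.2 in the Control, and Bcl6 121 ± 62.6 in the cKO and 157 ± 13.4 in the Control. Eomes (57.5 ± 5.94 in the cKO, 72.5 ± 16.1 in the Control) and Prdm1 (43.5 ± 8.46 in the cKO, 41.6 ± 4.58 in the Control) were the least abundant. Eomes was above Prdm1 within each library, and their ranges overlapped in the cKO but not in the Control. Exon lengths of all annotated isoforms were joined, so a gene with long rare isoforms, such as Ikzf2 with 11.6 kilobases, is set low on this scale.

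The library profiles of some of the 9 genes were alike. Maf and Ikzf2 differed by a root mean square of 0.19 on the log2 scale over the 6 libraries, Maf and Foxp3 by 0.21 and Foxp3 and Ikzf2 by 0.26, the closest of 36 pairs. Tbx21 and Bcl6 were the farthest apart. Among all tested genes, the profiles nearest to Tbx21 were those of Il18rap (0.12), a chain of the IL-18 receptor, and Evi5 (0.14). Nearest to Id2 were Fas (0.073), the death receptor, and 1810043G02Rik (0.075). Fas had 6465, 5713 and 5757 normalized counts in the cKO libraries, against 3812, 3612 and 3774 in the Control libraries, and it rose (log2 fold change 0.68, limma adjusted p = 0.0230). For Bcl6 they were Tbc1d31 (0.16) and Apobr (0.17), for Ikzf2 Plcb4 (0.13) and Whrn (0.15), for Foxp3 Mfsd13a (0.068) and Peak1 (0.088), and for Maf Vsig10 (0.10) and Apbb1 (0.12). Batf (Litaf and Srgn), Eomes (Hirip3 and Banp) and Prdm1 (Ubxn2b and Sh3d19) had flat profiles that many genes resemble, with 44%, 24.3% and 52.7% of tested genes within 0.3 on the log2 scale, against 0.709% for Tbx21, 0.782% for Ikzf2 and 0.864% for Bcl6.

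Genes known to act with or downstream of the 9 factors were grouped in 8 lists with 101 tested genes, and none of these passed with limma or edgeR, whereas 16 passed with DESeq2, which called 8.42% of all genes. At an unadjusted p under 0.05, 17 were higher and 11 were lower in the cKO, 28 of 101 together, beside 16.7% of all genes. The lists were chosen with earlier results of these data known, so these counts are a description without a test. The Th1 list, the program of T-bet, had a positive log2 fold change for 13 of 15 tested genes and a median of 0.58. Over all genes tested, 5695 of 11001 were positive. Ccl4 of the Th1 list had means of 286 in the cKO and 92.1 in the Control and was tested through its cKO mean alone. Hlx, a homeobox partner of T-bet, had the smallest p, with 1673, 729.8 and 1212 normalized counts in the cKO libraries, against 380.3, 359 and 349.9 in the Control libraries (log2 fold change 1.65, limma adjusted p = 0.0592). Nkg7, a cytotoxic granule protein, had 17344, 20875 and 19038.4 in the cKO libraries and 8690.5, 12454 and 7082 in the Control libraries (log2 fold change 1.06, limma adjusted p = 0.0749). Both were higher in each cKO library without passing. NK cells carry Nkg7 as well, and 3 of the 5 tested NK cell markers were higher in each cKO library, also without passing. Of these 3, Ncr1 and Klre1 had Control means of 98.3 and 54.6 and were tested through their cKO means alone. Over all 11001 genes tested, 1383 were higher in each cKO library. The part of NK cells in the Th1 list was not tested.

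**Figure D4:**
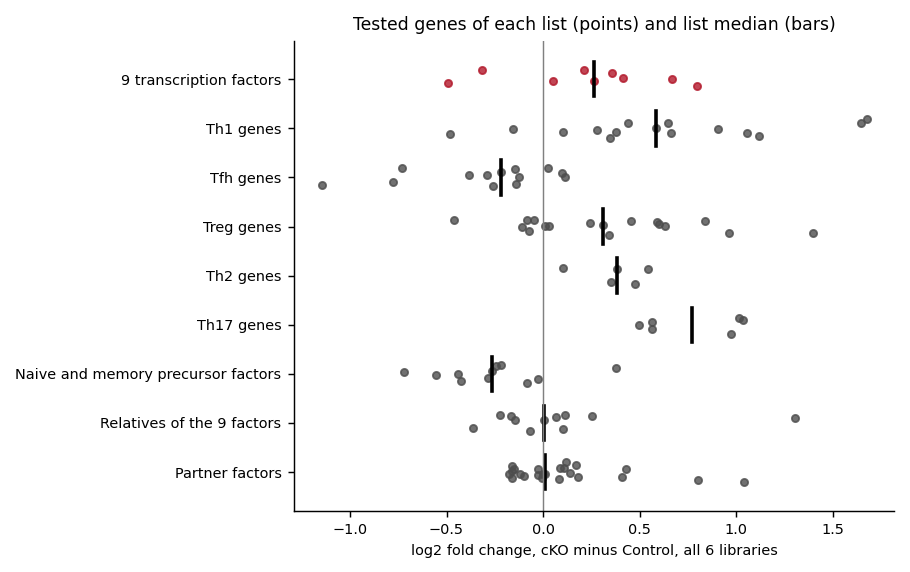
Log2 fold change, cKO minus Control (horizontal axis), of each tested gene (points, spread vertically for view) in the 9 transcription factors and in 8 lists of related genes, with the median of each list as a bar. Medians are 0.26 for the 9 factors, 0.58 for Th1, -0.22 for Tfh, 0.31 for Treg, 0.38 for Th2, 0.77 for Th17 and -0.26 for naive and memory precursor factors.

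The Tfh list, the program of BCL6, had a positive value for 3 of 13 tested genes and a median of -0.22. Il21 of this list had means of 82.6 in the cKO and 150.7 in the Control and was tested through its Control mean alone. Pou2af1, a coactivator of octamer factors that is abundant in B cells, had 424, 296 and 326 normalized counts in the cKO libraries, against 899, 684 and 726 in the Control libraries (log2 fold change -1.15, limma adjusted p = 0.0544), and it passed without KO_7.8. Slamf6, a receptor of the SLAM family on Tfh and B cells, had 8409, 8986 and 8412 in the cKO libraries and 11777, 10615 and 11335 in the Control libraries (-0.39, limma adjusted p = 0.0968). Both were lower in each cKO library. B cell markers were low in the same libraries, with a median log2 fold change of -1.01, and their part was not tested. The naive and memory precursor factors, among them Tcf7, had a positive value for 1 of 11 tested genes and a median of -0.26. Foxp1, which keeps T cells quiescent, had 20324, 20799 and 23619 in the cKO libraries and 29816, 29636 and 35982 in the Control libraries (-0.56, limma adjusted p = 0.0858). Myb, which supports precursor-like memory cells, had 480.4, 559 and 439 in the cKO libraries and 881, 913 and 657 in the Control libraries (-0.72, limma adjusted p = 0.128).

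Treg genes had a positive value for 12 of 17 tested members and a median of 0.31, which was -0.074 without CTRL_5.6. Capg, an actin capping protein, had 36648, 33888 and 30688 normalized counts in the cKO libraries, against 19985, 20509 and 12581 in the Control libraries (log2 fold change 0.96, limma adjusted p = 0.0882). Klrg1, a receptor of terminal effector and effector Treg cells, had 4874, 4699 and 2375 in the cKO libraries and 1531, 1977 and 976 in the Control libraries (1.40, limma adjusted p = 0.131). Both were higher in each cKO library, unlike Foxp3 and Ikzf2 themselves. All 5 tested Th2 genes were positive (median 0.38), among them Gata3 (0.35, limma adjusted p = 0.296), the Th2 master factor, and Il10ra (0.38, limma adjusted p = 0.251), the IL-10 receptor. All 6 tested Th17 genes were positive too (median 0.77), among them Il1r1 (1.01, limma adjusted p = 0.160), the IL-1 receptor, and Rora (0.56, limma adjusted p = 0.275), a nuclear receptor of Th17 cells. Without CTRL_5.6 the medians were 0.24 for Th2 and 0.44 for Th17 genes.

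Relatives of the 9 factors had a median of 0.0054 over 11 tested genes. Mafk, a small MAF protein without a transactivation domain, had a log2 fold change of -0.36 (limma adjusted p = 0.297). Partner factors had a median of 0.011 over 23 tested genes. Fos, the AP-1 partner of JUN, had 427, 592 and 470.2 normalized counts in the cKO libraries, against 228, 269 and 361 in the Control libraries (0.80, limma adjusted p = 0.160). Jun had 1422, 5297 and 1478 in the cKO libraries and 807, 1102 and 1429.9 in the Control libraries (1.04, limma adjusted p = 0.372), with KO_9.10 far above the other libraries.

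Splicing was examined because the ablated protein serves the spliceosome. Of the 17 events in the 9 genes, 7 lay in Ikzf2, 6 in Foxp3, 3 in Bcl6 and 1 in Maf. A minimum mean of 20 reads per condition left 16 for testing, and none was called at an FDR under 0.01 and at least 10 points of inclusion. The smallest unadjusted p was 0.157, so none had an unadjusted p under 0.05, and no second tool was run. Over all tested events, 0.495% of skipped exons, 0.25% of mutually exclusive exons and 1.08% of alternative 5' splice sites were called.

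The event with the largest difference was an alternative 5' splice site in exon 4 of Ikzf2-201, at chr1:69577781-69578047 on the minus strand of GRCm38. The downstream site adds 78 bases, or 26 codons, at chr1:69577781-69577858 to the 189 bases that both forms share. The exon is coding, and the added bases encode a zinc finger of the N-terminal DNA-binding domain. The longer form is annotated in 2 and the shorter form in 3 transcripts of GENCODE M21. The exon is shown from 5' to 3' in the sense of the transcript because the form that a library uses decides whether this finger is present, with the bases of the longer form in capitals.
Ikzf2 exon 4: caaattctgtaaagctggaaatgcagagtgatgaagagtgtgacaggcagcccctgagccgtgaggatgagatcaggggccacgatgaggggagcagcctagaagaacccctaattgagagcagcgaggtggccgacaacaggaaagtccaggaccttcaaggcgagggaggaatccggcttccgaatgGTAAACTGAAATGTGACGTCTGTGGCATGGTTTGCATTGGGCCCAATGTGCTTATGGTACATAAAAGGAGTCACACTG

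In the cKO, 84, 172 and 88 inclusion counts and 46, 174 and 99 skipping counts gave the longer form an inclusion of 54.5, 39.4 and 36.9%. In the Control, 71, 95 and 20 inclusion counts and 86, 92 and 47 skipping counts gave 35.2, 40.4 and 21.8%. The highest value was in the cKO and the lowest in the Control, and the conditions overlapped. Mean inclusion was 43.6 ± 9.56% in the cKO and 32.5 ± 9.57% in the Control (SD, n = 3 each), a difference of 11.11 points that did not pass (quasi-binomial model with dispersions moderated by limma, adjusted p = 0.63). The difference ranged from 5.64 to 15.1 points when single values were left out. The whole exon was included at 98.5 ± 1.42% in the cKO and 96.4 ± 4.22% in the Control, and skipping of the whole exon was rare in both conditions. A 104-base upstream exon of Ikzf2 at chr1:69685694-69685797 was included at 61.3, 63.3 and 72.4% in the cKO and at 51.0, 61.8 and 82.5% in the Control, with overlapping values.

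**Figure D5:**
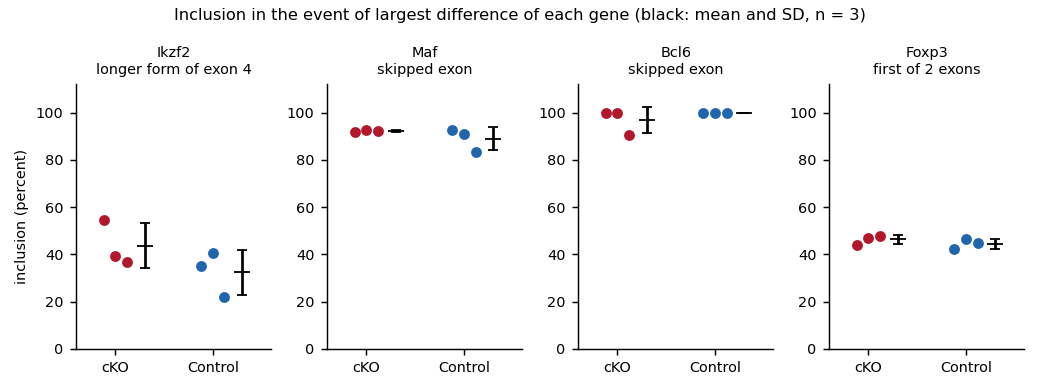
Inclusion in percent (vertical axis, from 0) in the 3 cKO values (left, red) and the 3 Control values (right, blue) of the tested event with the largest difference in Ikzf2, Maf, Bcl6 and Foxp3, with the mean and SD in black. The longer form of Ikzf2 exon 4 spans 36.9 to 54.5% in the cKO and 21.8 to 40.4% in the Control, and the differences of the other events are 3.20 points for Maf, -3.21 for Bcl6 and 1.90 for Foxp3. The Foxp3 value sets the upstream exon against the adjacent exon only.

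The events of Maf, Bcl6 and Foxp3 that were tested did not pass either, which does not show equal inclusion. The single Maf event, an exon of 61 bases at chr8:115693132-115693192, was included at 92.3 ± 0.53% in the cKO and 89.1 ± 4.93% in the Control (SD, n = 3 each). For Bcl6, the exon at chr16:23969906-23970073 was included at 96.8 ± 5.55% in the cKO and in all 80 reads of the Control, and the -3.21 points rest on 1 skipping read in the cKO. In Foxp3, adjacent exons listed as mutually exclusive, at chrX:7586334-7586561 and chrX:7587074-7587178, gave the upstream exon an inclusion of 46.4 ± 1.94% in the cKO and 44.4 ± 2.17% in the Control. This value sets the upstream exon against the adjacent exon only. As a skipped exon event, the upstream exon was included at 99.3 ± 0.63% in the cKO and 99.5 ± 0.45% in the Control. A Foxp3 exon of 139 bases at chrX:7587275-7587413 was included in every read of the cKO and at 99.7 ± 0.61% in the Control. The event left untested for its low reads was a Foxp3 exon of 37 bases at chrX:7577688-7577724. Its 22, 15 and 20 inclusion counts and 0, 0 and 4 skipping counts in the cKO gave 100, 100 and 80.0%, against 100% in each Control value, from 17, 9 and 14 inclusion counts. The difference of -6.66 points rests on the 4 skipping counts of 1 cKO value. The 3 values per condition in these tables carry no library names, so KO_7.8 and CTRL_5.6 could not be followed here.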

How the data were processed

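RNA of sorted CD4+ T cells (3 cKO and 3 Control libraries) was sequenced as paired reads. The authors used cutadapt for trimming, STAR for alignment to GRCm38 and featureCounts for counting per gene. The deposited expression signal is a gene count scaled by the library's size factor from DESeq2, and 100% of values came out as whole reads within 0.01 after multiplication by the size factor. The deposited splicing counts are inclusion and skipping counts of rMATS from junctions and exons. Use of strand in counting is not stated, so overlapping genes (near Eomes, Bcl6, Maf, Foxp3 and Ikzf2) cannot be separated. The authors' own fold changes, p-values and inclusion differences were not used. The order of conditions in the splicing tables follows the paper's definition of the difference.

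Genes needed a symbol and 100 or more normalized counts on average in either condition, which left 11001. The test was limma 3.58.1 in R 4.3.3, applied to log2(normalized count + 1), which understates the change of low genes, with trended variance and Benjamini-Hochberg adjustment. Genes passed at an adjusted p under 0.05. edgeR 4.0.16 and DESeq2 1.42.0 on the recovered counts, other normalizations, pseudocounts and filters, and leaving out libraries were alternatives. Splicing events were tested by a quasi-binomial model, with dispersions moderated by limma and a floor of 1. Both tests were checked on simulated data. In the expression simulation, limma recovered 18% of genes changed 1.5-fold, 50% changed 2-fold and 94% changed 4-fold, and it called 14 unchanged genes. Changes of 2-fold or less were thus often missed there. Recovery in the splicing simulation is not reported here. Confidence intervals are 95%. Named genes are the 9 factors and, per list, every gene that passed or otherwise the 2 of smallest p, with 2 nearest profiles per factor. Id3, Tcf3, Ccl4, Il21, the ratios and the single markers Ncr1, Klre1, Cd74, Itgax and Xcr1 were chosen after their values were seen. Cd2bp2, Cd4, Sdc1 and Mki67 also stand outside this rule. The genes, lists and tests were chosen with earlier results of these data known. Positions, exons and the printed sequence come from GENCODE M21 (GRCm38).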

Additional observations from a re-analysis of the deposited data

How the results depend on the processing

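Id2 was the single one of the 9 genes to pass under each alternative that kept all 6 libraries (edgeR, DESeq2, TMM, median-ratio and quantile normalization, robust prior, other pseudocounts and filters), and 0 of the 9 passed when any single library was left out. Without KO_7.8 and CTRL_5.6 together, a set chosen after seeing the data, 3 of the 9 passed. Genes passing over all numbered 107 with limma, 926 with DESeq2, 26 to 130 with 1 library left out and 1460 without both libraries. Conditions did not overlap for 1 of the 9 genes with all libraries (24.1% of all genes), for 1 to 4 with 1 library left out (28.8% to 40.3%) and for 4 without both (57%). Listed genes passing numbered 0 with limma, 1 after quantile normalization, 16 with DESeq2 (8.42% of all genes), 0 to 1 with 1 library left out and 28 without both (13.3%). Reversals concerned genes that did not pass: Prdm1 was -0.046 after quantile normalization and ran from -0.093 without KO_9.10 over -0.014 without CTRL_5.6 to 0.18 when 1 library was left out, Foxp3 ran from -0.043 without CTRL_5.6 to 0.44 and was -0.067 without both, and Ikzf2 ran from -0.055 without CTRL_5.6 to 0.72. The cause was not tested. Skipped exons called over all events numbered 194, and 371 with a dispersion prior over all events, while no event of the 9 genes was called under any alternative. No paired analysis was possible because the groups share no replicate numbers. With 3 libraries a group, Tbx21 and Bcl6 did not pass with all 6 libraries, which does not show equal levels. The log2 fold change of Tbx21 was 0.80, beside a log2 SD of 0.41 in the cKO and 0.66 in the Control. That of Bcl6 was -0.49, beside 0.70 in the cKO and 0.12 in the Control.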

Other observations

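Among the markers of other cell types, 2 genes passed, where 0.973% of all genes tested did. Jchain, the joining chain of secreted antibodies, had 2383, 2803 and 2489 normalized counts in the cKO libraries, against 1337, 1097 and 1346 in the Control libraries (log2 fold change 1.02, limma adjusted p = 0.0218), while Sdc1, another plasma cell gene, overlapped between conditions (142, 104 and 111 in the cKO, against 157, 107 and 108 in the Control). Zbtb46, a factor of classical dendritic cells, had 1585, 1333 and 1316 in the cKO libraries and 725, 744 and 639 in the Control libraries (2.004-fold, limma adjusted p = 0.0230). Its cKO values lay close together, whereas those of Cd74, the invariant chain of antigen presenting cells, were 855773, 164347 and 207264, against 142610, 135376 and 210870 in the Control libraries. Of the 7 tested dendritic cell markers, 3 (Zbtb46, Itgax and Xcr1) were higher in each cKO library, beside 1383 of 11001 genes tested. Xcr1 had 225, 355 and 232.5 in the cKO libraries and 152, 171 and 127 in the Control libraries (limma adjusted p = 0.187).

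Proliferation markers had their highest sum in KO_7.8 (31051), with 17203 and 17599 in KO_9.10 and KO_11.12 and 15553 to 17640 in the Control. Mki67, a marker of cycling cells, had 2635, 1212 and 1039.8 normalized counts in the cKO libraries, against 1159, 739 and 598 in the Control libraries (limma adjusted p = 0.316).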
